A study of Mus musculus with 6 samples.

Results

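The genes of the mitogen-activated protein (MAP) kinase cascades were examined in primary mouse oligodendrocyte precursor cells (mOPCs) after knockdown of Qk, the gene of the RNA-binding protein Qki. Members were taken by symbol: every listed gene named Map4k, Map3k, Map2k or Mapk followed by a number, the Mapk genes with the ending ip and a number, which encode interacting and scaffold proteins, and Spag9, which encodes the scaffold JIP4. The rule found 45 of the 23038 listed genes, with 5 in the Map4k tier, 15 in the Map3k tier, 7 in the Map2k tier, 13 in the Mapk tier and 5 scaffold or interacting genes. Kinases that the tables list under other names, such as the Raf genes, were not members and are given as a separate list further on. The cells had been purified from mouse embryos by immunopanning, and the labels name no strain and no engineered allele. The siNC group was 3 libraries of cells that received control siRNA, and the siQk group was 3 libraries of cells that received siRNA against Qk. All were collected 72 h after transfection. The labels speak of several different siRNAs for Qk without tying one to a library, so a siRNA and its library cannot be told apart. The labels call the libraries biological replicates.

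MAP kinase cascades are relays of protein kinases. A MAP3K phosphorylates a MAP2K, the MAP2K phosphorylates a MAPK on a threonine and a tyrosine, and MAP4Ks or small GTPases act above the MAP3Ks. Scaffold proteins hold members of 1 relay together. The ERK relay carries growth factor signals and is needed for oligodendrocyte differentiation and myelin growth, whereas the JNK and p38 relays respond mainly to stress and cytokines. All values here are transcript levels, which do not show whether a kinase was phosphorylated.

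Levels are given as RPKM, the tags of a gene scaled to the length of its exons and to the total tags of the library, so that genes of different length can be compared. Fold changes are log2 values of siQk over siNC from edgeR's quasi-likelihood test on the tag numbers, with scaling factors between libraries (TMM). The call of a change needed P below 0.01 and an FDR, the p adjusted by Benjamini-Hochberg over the 12505 genes with an average logCPM over 0, below 0.1. The TMM factors were 0.899 to 0.987 for siNC and 1.04 to 1.07 for siQk, and RPKM carries no such factor, so RPKM levels lie higher in siQk, relative to siNC, than the fitted fold changes do.

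The libraries held 58166490 to 141045937 tags, and the members took 0.529% to 0.686% of them. The smallest library, siNC 1, had 3.11% of its tags on Rn45s, a ribosomal RNA gene, where the other libraries had 0.169% to 0.389%. Qk had 209, 206 and 163 RPKM in siNC and 51.3, 76.6 and 36.2 RPKM in siQk. The groups thus did not overlap, and siQk was the lower, with a log2 fold change of -1.98 (SE 0.28, edgeR FDR 0.00311). Over all tested genes, 31.0% were called, 13.8% higher and 17.2% lower in siQk. Leaving out siQk 1 lowered the number of called genes from 3879 to 2478 and of higher genes from 1730 to 1008, and leaving out siQk 2 lowered the higher genes to 1104. Other scalings changed the balance of directions, with 1730 higher and 2149 lower genes by TMM, 2234 and 1785 by upper quartile scaling, and 2989 and 1365 with library size only.

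Some markers of cell types and stages differed between the groups. The sums of the OPC markers and of the myelin genes did not overlap between the groups. Those of the astrocyte, neuron, and fibroblast and vascular markers did. All 10 listed OPC markers were tested, 4 were higher and 1 was lower in siQk, and their summed level was 1049 to 1130 RPKM in siNC and 1271 to 1431 RPKM in siQk. Of 12 tested myelin and mature oligodendrocyte genes among 14 listed, 10 were lower, and their sum was 3483 to 6076 RPKM in siNC, lowest in siNC 3, and 1478 to 2212 RPKM in siQk. Of the 8 astrocyte markers, 4 were lower and 1 was higher among 7 tested, with sums of 213 to 313 RPKM in siNC and 187 to 216 RPKM in siQk. Of the 12 neuron markers, 2 were higher and 1 was lower among 10 tested, and the sums were 272 to 366 RPKM in siNC and 265 to 293 RPKM in siQk. The largest part of the astrocyte sum was S100b, and the largest parts of the neuron sum were Gap43 and Tubb3. None of these was called, so the sums do not follow the called markers. The 8 microglia markers summed to at most 3.32 RPKM, with C1qa and C1qb at 0 in every library, and P2ry12, the 1 tested gene, was lower. The 10 fibroblast and vascular markers summed to at most 5.07 RPKM, mostly from Kdr, and Cldn5 was at 0 in every library. In bulk RNA, fewer cells of a type and less RNA per cell cannot be told apart, and the part of these markers in the members' differences was not tested.

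Of the 42 members that passed the filter, 14 were called, 7 higher and 7 lower in siQk, which is 33.3% against 31.0% over all genes. With library size only in place of TMM, 11 members were higher and 6 lower. Map3k6, Mapk13 and Mapk15 were too low to be tested. The median log2 fold change was -0.03 over the tested members and 0.01 over all tested genes. By tier, calls were made for 2 of 5 Map4k genes, both lower, for 4 of 14 tested Map3k genes, 3 higher and 1 lower, and for 1 of 7 Map2k genes, which was lower. Calls were made for 5 of 11 tested Mapk genes, 3 higher and 2 lower, and for 2 of 5 scaffold genes, 1 in each direction. The median log2 fold changes of the tiers, in the same order, were -0.37, -0.03, 0.06, 0.15 and -0.23. Among the members called higher, Map3k9 passed the filter only through its siQk libraries. Each share of called genes rests on few genes, and no tier was tested as a set.

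**Figure D1:**
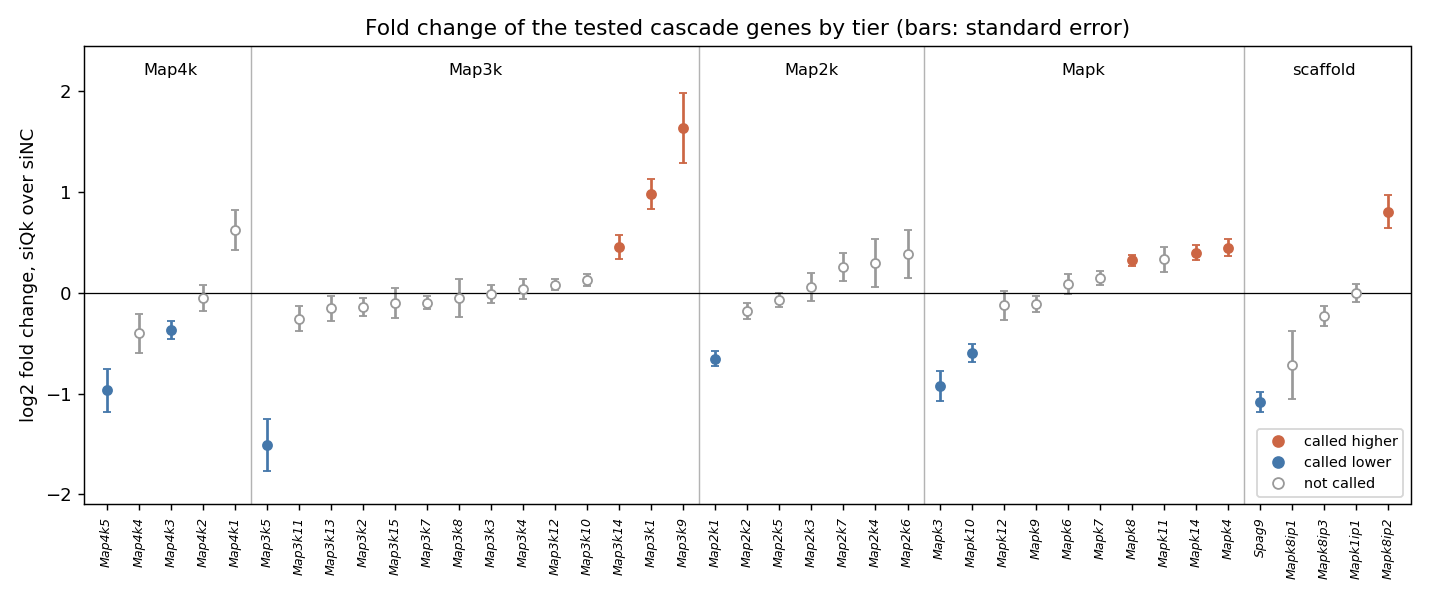
Log2 fold change of siQk over siNC (vertical axis) for the tested members reported here, ordered within each tier; points are estimates from edgeR, bars are standard errors over 3 libraries against 3, and filled points passed the call. Calls in both directions stand in the Map3k, Mapk and scaffold tiers, from -1.51 for Map3k5 to 1.63 for Map3k9. Map3k9 passed the filter only through its siQk libraries. The calls in the Map4k and Map2k tiers are lower only.

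In the Map4k tier, Map4k4 was the most abundant transcript of all members, and Map4k5 was the gene with the largest fall. Map4k4 (chr1:39900902-40026310 in mm10), a Ste20-type kinase above the JNK relay, had 357, 292 and 245 RPKM in siNC and 246, 219 and 291 RPKM in siQk. The groups overlapped, and the log2 fold change of -0.40 (SE 0.19, edgeR FDR 0.139) was not called under any alternative setting. Map4k4 made up 71.6% to 78.2% of the summed RPKM of its tier in siNC and 78.4% to 80.2% in siQk.

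Map4k5 (chr12:69803757-69893163), another Ste20-type kinase of the germinal center kinase group, had 69.2, 49.5 and 66.2 RPKM in siNC and 37.7, 26.1 and 41.3 RPKM in siQk. All siQk libraries lay below all siNC libraries, and 56.8% of the siNC mean remained (log2 fold change -0.97, SE 0.21, edgeR FDR 0.0142). Without siNC 1 the call was lost, at a log2 fold change of -0.83 and an edgeR FDR of 0.0401, because P was then above the cutoff. Map4k3 (chr17:80580513-80728806), a kinase linked to amino acid sensing, had 22.6, 29.1 and 24.1 RPKM in siNC and 21.6, 21.9 and 21.7 RPKM in siQk. In RPKM the siQk values lay close together and just under the lowest siNC value. Divided by the TMM factors, Map4k3 was at 24.4 to 30.3 in siNC and 20.5 to 20.8 in siQk, a wider gap. It was called lower, with a log2 fold change of -0.37 (SE 0.090, edgeR FDR 0.0209). This call was lost when any siQk library was left out, at -0.36 without siQk 1, -0.36 without siQk 2 and -0.37 without siQk 3, with edgeR FDR values of 0.0748, 0.0687 and 0.0580, and also with upper quartile scaling (-0.30) or library size only (-0.22). The remaining members of the tier were Map4k2, at 5.66 to 7.67 RPKM over all libraries, and Map4k1, a kinase best known from blood cells, at 0.765 to 1.82 RPKM. Map4k1 was not called at a log2 fold change of 0.62 (edgeR FDR 0.0448), but it was called in 6 of 16 alternative settings, among them without siNC 3, at 0.78 (edgeR FDR 0.0276).

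In the Map3k tier, Map3k1 rose, Map3k5 fell, and the most abundant members, Map3k7 and Map3k12, were not called. Map3k1 (chr13:111746428-111818269), which encodes MEKK1, a MAP3K of the JNK and ERK relays that also holds a ubiquitin ligase domain, had 4.49, 7.08 and 7.06 RPKM in siNC and 14.6, 12.7 and 13.4 RPKM in siQk. The siQk mean was 218% of the siNC mean, and all siQk values lay above all siNC values (log2 fold change 0.98, SE 0.15, edgeR FDR 0.00431). Map3k5 (chr10:19934101-20142750), which encodes the oxidative stress kinase ASK1, had 1.02, 2.25 and 1.89 RPKM in siNC and 0.586, 0.728 and 0.686 RPKM in siQk. The groups did not overlap, and the log2 fold change of -1.51 (SE 0.26, edgeR FDR 0.00629) was the largest fall of any member, at a low level.

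Map3k14 (chr11:103219764-103267401), which encodes NIK, the kinase that starts the noncanonical NF-kappaB pathway, had 1.48, 2.04 and 1.74 RPKM in siNC and 2.83, 2.61 and 2.56 RPKM in siQk. The siQk values lay above the siNC values, with a log2 fold change of 0.46 (SE 0.12, edgeR FDR 0.0246). Leaving out a library ended this call for siNC 1 (0.38), siNC 3 (0.42), siQk 1 (0.41), siQk 2 (0.48) and siQk 3 (0.48), with edgeR FDR values from 0.0547 to 0.0925. Map3k9, a mixed lineage kinase below the level set for naming and named after its values were seen, was called higher at 1.63 (SE 0.35, edgeR FDR 0.0128). Its levels were 0.0229 to 0.0592 RPKM in siNC and 0.125 to 0.144 RPKM in siQk, from 23 to 78 and 123 to 217 tags. Its average logCPM of 0.047 was just over the filter of 0, and the siNC libraries alone lay below that filter. Map3k9 was thus tested only through the group in which it is higher, which limits the weight of its call.

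Map3k7 (chr4:31963492-32023470), which encodes TAK1, the MAP3K that relays tumor necrosis factor, interleukin-1 and TGF-beta signals, had 23.9, 22.2 and 24.1 RPKM in siNC and 24.4, 24.3 and 24.2 RPKM in siQk. These RPKM values lay closer together than those of most members, and the log2 fold change was -0.10 (SE 0.068, edgeR FDR 0.294). With library size only it was 0.056, so the sign depended on the scaling. The other 9 tested members of the tier that were not called ran from the lowest library values of Map3k8 at 0.667 RPKM to the highest of Map3k12 at 27.5 RPKM. Their log2 fold changes lay between -0.26 for Map3k11 and 0.13 for Map3k10. Map3k12, which encodes the dual leucine zipper kinase of axon injury signaling, had a log2 fold change of 0.08 (edgeR FDR 0.293). Map3k11 was called when siNC 3 was left out, at -0.37 (edgeR FDR 0.0337), and Map3k10 was called with library size only, at 0.28 (edgeR FDR 0.0279). Map3k6 was at 0.0300 to 0.0844 RPKM and was not tested.

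**Figure D2:**
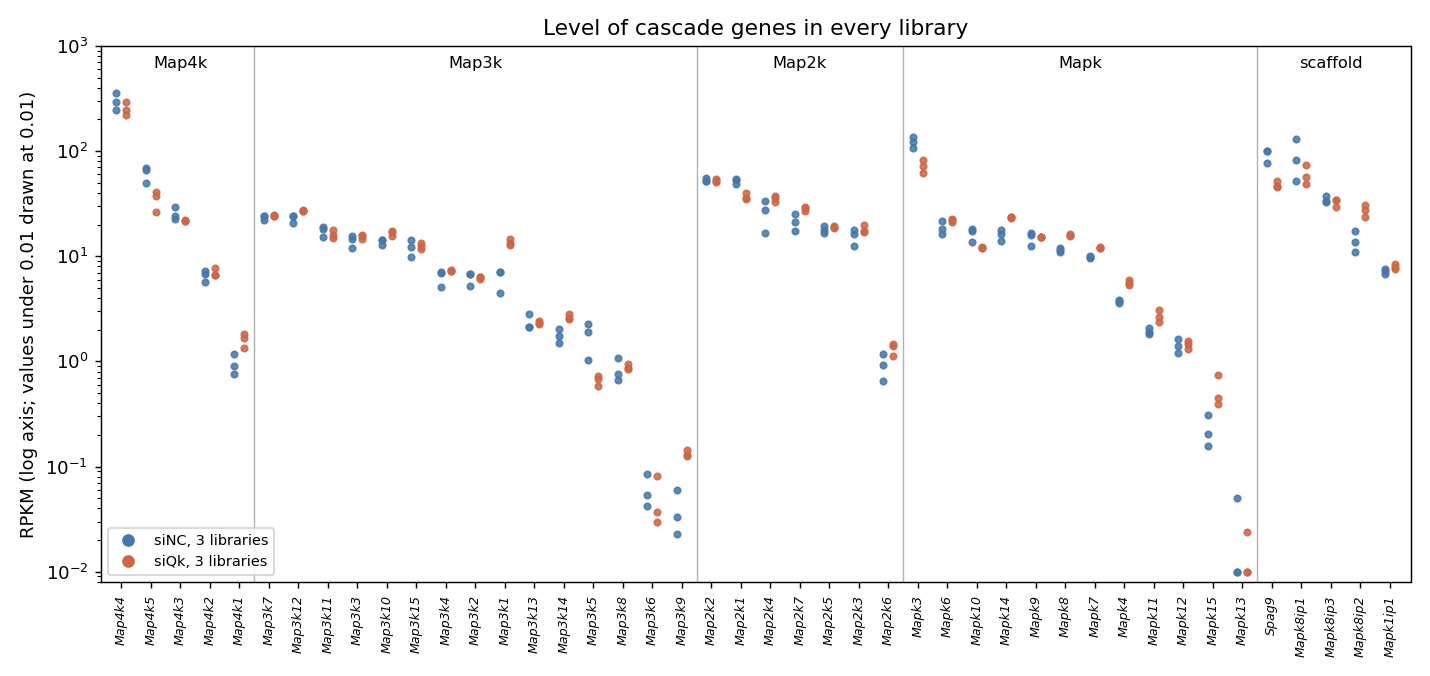
RPKM of the members reported here in each library (vertical log axis, values under 0.01 drawn at 0.01), with members ordered by their siNC mean within each tier and 3 points per group. Map4k4 stands highest at 219 to 357 RPKM, the Map3k genes reach at most 27.5 RPKM, and Mapk13 is at 0 in 4 of the 6 libraries.

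In the Map2k tier, Map2k1 fell and the other 6 genes were not called. Map2k1 (chr9:64185769-64253605), which encodes MEK1, an activator of the ERK relay, had 48.3, 53.6 and 54.1 RPKM in siNC and 35.4, 35.0 and 39.6 RPKM in siQk. The groups did not overlap, and 70.6% of the siNC mean remained (log2 fold change -0.65, SE 0.070, edgeR FDR 0.00140). Map2k2, which encodes MEK2, the close relative of MEK1 with the same substrates, had 55.3, 52.1 and 51.7 RPKM in siNC and 51.0, 51.5 and 53.7 RPKM in siQk. The groups overlapped in RPKM, but not after division by the TMM factors, at 52.4 to 61.5 in siNC and 48.3 to 51.4 in siQk. The log2 fold change of Map2k2 was -0.18 (SE 0.076, edgeR FDR 0.103).

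The JNK activators were more variable in siNC. Over all genes, too, siNC libraries differed more from each other than siQk libraries did (chi-square per degree of freedom 160.5 to 281 against 31.7 to 64.2). This measure weights abundant transcripts and includes Rn45s, whose excess in siNC 1 raises the values of its pairs. The pair of siNC 2 and siNC 3, without that library, was at 160.5. Map2k4, which encodes MKK4, had 27.7, 16.5 and 33.4 RPKM in siNC and 37.1, 32.7 and 36.1 RPKM in siQk, a log2 fold change of 0.30 (SE 0.24, edgeR FDR 0.352). Map2k7, which encodes MKK7, had 21.3, 25.4 and 17.5 RPKM in siNC and 27.2, 29.7 and 28.7 RPKM in siQk, a log2 fold change of 0.26 (SE 0.14, edgeR FDR 0.178). The siNC 2 library was the lowest of its group for Map2k4 and the highest for Map2k7, whereas the siQk libraries kept both genes within narrow ranges. Map2k3, which encodes the p38 activator MKK3, had 16.3, 12.6 and 17.6 RPKM in siNC and 17.4, 16.9 and 19.6 RPKM in siQk (log2 fold change 0.06, SE 0.14, edgeR FDR 0.750). Map2k6, which encodes the second p38 activator MKK6, had 0.932, 0.652 and 1.17 RPKM in siNC and 1.47, 1.39 and 1.13 RPKM in siQk (0.38, SE 0.24, edgeR FDR 0.239). The groups overlapped for both p38 activators, and Map2k3 was more abundant than Map2k6 in every library. Map2k5, the activator of ERK5, had 17.9, 16.5 and 19.3 RPKM in siNC and 19.2, 19.2 and 18.4 RPKM in siQk (-0.07, SE 0.073, edgeR FDR 0.476), with overlapping groups.

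In the Mapk tier, the gene of ERK1 fell, and among the JNK genes Mapk8 rose and Mapk10 fell. Mapk3 (chr7:126759626-126765816), which encodes ERK1, had 123, 137 and 106 RPKM in siNC and 71.5, 61.4 and 82.3 RPKM in siQk. The 3 siQk values were the lowest of the 6, and 58.7% of the siNC mean remained (log2 fold change -0.92, SE 0.15, edgeR FDR 0.00491).

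The 3 JNK genes moved apart. Mapk8 (chr14:33377898-33447353), which encodes JNK1, had 11, 11.4 and 12 RPKM in siNC and 16.3, 16.0 and 15.6 RPKM in siQk, with no overlap (log2 fold change 0.32, SE 0.053, edgeR FDR 0.00530). Mapk9, which encodes JNK2, had 12.4, 15.7 and 16.5 RPKM in siNC and 15.3, 15.3 and 15.1 RPKM in siQk, inside the siNC range (-0.11, SE 0.081, edgeR FDR 0.313). Mapk10 (chr5:102908547-103212604), which encodes JNK3, the JNK found mainly in the nervous system, had 13.6, 17.6 and 18.3 RPKM in siNC and 12, 12.2 and 12 RPKM in siQk. Its siQk values lay below all siNC values, with siNC 1 nearest to them (-0.59, SE 0.088, edgeR FDR 0.00384). Mapk10 had the highest mean of the JNK genes in siNC, 16.5 ± 2.55 RPKM (SD, n = 3), which overlapped with that of Mapk9 at 14.9 ± 2.15 RPKM (SD, n = 3). In siQk the order was Mapk8 at 15.9 ± 0.331, Mapk9 at 15.3 ± 0.136 and Mapk10 at 12.1 ± 0.152 RPKM (SD, n = 3), and the ranges of neighbors in this order did not overlap.

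Among the p38 genes, Mapk14 rose. Mapk14 (chr17:28691342-28748405), which encodes p38 alpha, had 14.0, 17.7 and 16.4 RPKM in siNC and 23.1, 23.6 and 23.6 RPKM in siQk. The siQk values were all higher and close together, at 146% of the siNC mean (log2 fold change 0.40, SE 0.074, edgeR FDR 0.00800). Mapk11, which encodes p38 beta, had 1.82, 1.91 and 2.09 RPKM in siNC and 3.07, 2.39 and 2.66 RPKM in siQk, and was not called (0.33, SE 0.13, edgeR FDR 0.0812). Mapk12, which encodes p38 gamma, had 1.21, 1.64 and 1.40 RPKM in siNC and 1.55, 1.32 and 1.45 RPKM in siQk, with overlapping groups (-0.13, SE 0.14, edgeR FDR 0.515). Mapk12 lies next to Mapk11 on chromosome 15. Mapk13, the gene of p38 delta, had no tag in 4 libraries, 10 tags in siNC 3 and 3 tags in siQk 2.

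Of the remaining MAPKs, Mapk4 was called higher. Mapk4, which encodes the atypical kinase ERK4, had 3.58, 3.80 and 3.78 RPKM in siNC and 5.59, 6.0 and 5.33 RPKM in siQk, with no overlap (log2 fold change 0.45, SE 0.080, edgeR FDR 0.00706). Its relative Mapk6, which encodes ERK3, had 16.2, 21.5 and 18.2 RPKM in siNC and 22, 21 and 22.7 RPKM in siQk, with overlap (0.09, SE 0.096, edgeR FDR 0.506). Mapk7, which encodes ERK5, had 9.84, 9.52 and 10.0 RPKM in siNC and 11.9, 11.9 and 12.3 RPKM in siQk. Its RPKM did not overlap between groups, yet the fold change was not called (0.15, SE 0.066, edgeR FDR 0.119), except with library size only (0.30, edgeR FDR 0.0139). Mapk15 was at 0.157 to 0.306 RPKM in siNC and 0.397 to 0.747 RPKM in siQk and was not tested.

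**Figure D3:**
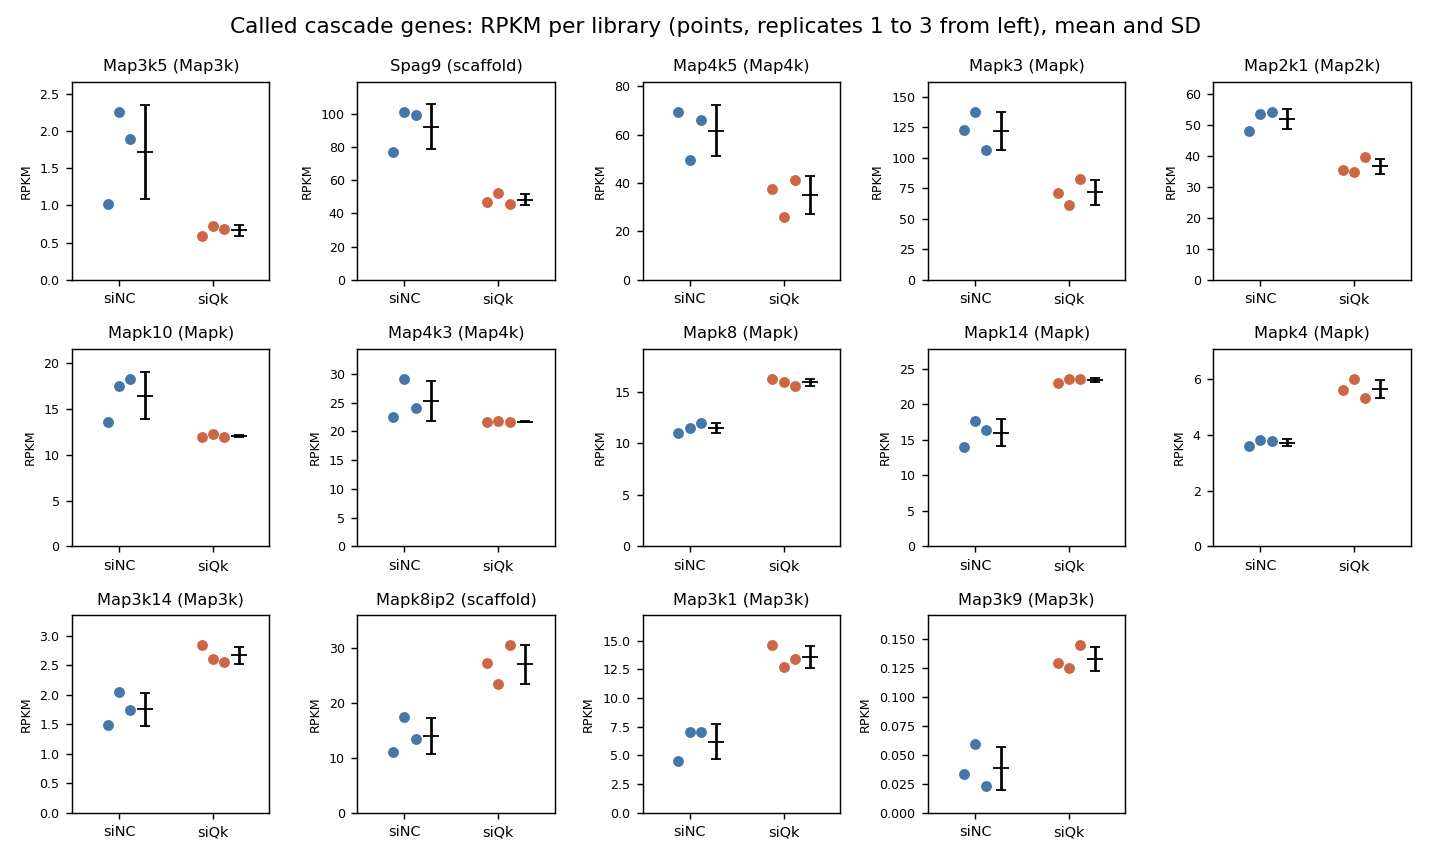
RPKM of the 14 called members in each library (points), with the group mean and SD (n = 3) to the right of the points; each panel has its own linear axis from 0. Mapk3 falls from 106 to 137 RPKM in siNC to 61.4 to 82.3 RPKM in siQk, and the siQk values of Map4k3 lie just under the lowest siNC value.

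Among the scaffold genes, Spag9 fell and Mapk8ip2 rose. These proteins bind JNK or p38 relays and also link cargo to kinesin and dynein motors. Spag9 (chr11:93996046-94126093), the gene of JIP4, had 76.9, 101 and 99.1 RPKM in siNC and 46.7, 52.2 and 45.9 RPKM in siQk. The groups did not overlap, 52.3% of the siNC mean remained, and the log2 fold change was -1.08 (SE 0.10, edgeR FDR 9.36e-04). Mapk8ip2 (chr15:89453911-89462447), the gene of JIP2, had 11, 17.4 and 13.5 RPKM in siNC and 27.3, 23.4 and 30.5 RPKM in siQk. The siQk values were all higher, at 194% of the siNC mean (log2 fold change 0.81, SE 0.17, edgeR FDR 0.0113).

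Mapk8ip1, the gene of JIP1, had the widest spread in siNC of the scaffold genes, with a mean of 88.4 ± 40.2 in siNC against 59.9 ± 12.9 RPKM in siQk (SD, n = 3). Its siNC values ran from 51.5 RPKM in siNC 3 to 131 RPKM in siNC 2 and overlapped with the siQk values of 48.7 to 74.0 RPKM (log2 fold change -0.72, SE 0.34, edgeR FDR 0.136). Without siNC 3 it was called, at -1.002 (edgeR FDR 0.0217), and without siNC 2 the log2 fold change was -0.34 (edgeR FDR 0.378). The siNC 3 library was also the lowest of its group for the summed myelin genes, whose part in this value was not tested. Mapk8ip3, the gene of JIP3, was at 32.5 to 37.4 RPKM in siNC and 29.5 to 34.4 RPKM in siQk (-0.23, SE 0.098, edgeR FDR 0.105). Mapk1ip1 was at 6.79 to 7.51 RPKM in siNC and 7.54 to 8.46 RPKM in siQk, with a fitted log2 fold change of 0.00 to 2 decimals (-0.0032, SE 0.087, edgeR FDR 0.980).

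The summed levels of the tiers are given as RPKM, and their differences also after division by the TMM factors where these moved them by over 1.5 times. The Map4k sum went from 393 ± 58.5 to 317 ± 44.1 RPKM (SD, n = 3 here and in the sums that follow) (exact permutation test, two-sided, p = 0.2), and its difference went from -75.3 to -115 RPKM with TMM factors. The scaffold sum was 236 ± 50.4 RPKM in siNC and 176 ± 15.1 RPKM in siQk (exact permutation test, p = 0.1, the smallest that 3 libraries against 3 allow). The Map3k sum was 129 ± 8.90 RPKM in siNC and 146 ± 1.19 RPKM in siQk (exact permutation p = 0.1), but after division by the TMM factors the difference of 16.7 RPKM shrank to 2.44 RPKM. The Mapk sum was 269 ± 19.8 RPKM in siNC and 248 ± 10.6 RPKM in siQk (exact permutation p = 0.2), and its difference went from -21.03 to -48.1 RPKM with TMM factors. The Map2k sum was 187 ± 8.75 RPKM in siNC and 191 ± 5.70 RPKM in siQk (exact permutation p = 0.5), and its difference changed sign from 4.15 to -15.7 RPKM.

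The share of a gene in the summed RPKM of its family is free of the scaling between libraries, since all genes of a library carry the same factor. In the pair of Map2k1 and Map2k2, Map2k1 made up 46.6%, 50.7% and 51.1% in siNC and 41.0%, 40.5% and 42.5% in siQk.

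In the JNK family, Mapk8 went from 27.0 ± 2.39% to 36.9 ± 0.43% (SD, n = 3) and Mapk10 from 38.3 ± 1.47% to 27.9 ± 0.352% (SD, n = 3). Mapk9 made up 33.6% to 35.2% in siNC and 35.2% to 35.4% in siQk. In RPKM, the Mapk8 and Mapk10 shares did not overlap between the groups, and the Mapk9 shares did. In the p38 family, Mapk14 held 82.2% to 83.3% in siNC and 83.3% to 86.3% in siQk. In the MEKK family of Map3k1 to Map3k4, Map3k1 made up 16.8%, 19.4% and 20.0% in siNC and 32.9%, 30.7% and 32.2% in siQk. The Map3k3 share went from 42.8 ± 1.71% to 36.2 ± 1.19% (SD, n = 3). Map3k3 itself was not called, with a log2 fold change of -0.014 (edgeR FDR 0.908). Its level was 11.9 to 15.5 RPKM in siNC and 14.5 to 16.1 RPKM in siQk, with overlapping groups. The shares of a family depend on each other, so a lower share need not be a lower level.

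In the ASK family, Map3k5 made up 7.60%, 13.6% and 16.2% in siNC and 4.44%, 5.11% and 5.51% in siQk, and Map3k15 held most of the remainder. In the JIP family of Mapk8ip1, Mapk8ip2, Mapk8ip3 and Spag9, Mapk8ip2 made up 5.40%, 6.07% and 6.88% in siNC and 16.5%, 15.2% and 16.5% in siQk. Spag9 made up 37.7%, 35.1% and 50.4% in siNC and 28.2%, 33.9% and 24.9% in siQk, and the nearest values of the groups were siNC 2 and siQk 2. For each share named here whose groups did not overlap, the exact two-sided permutation test gave p = 0.1, the smallest possible, and 0.159 after Benjamini-Hochberg adjustment over 35 shares in 12 families. With tags in place of RPKM, which weights long genes more, the difference in the Mapk8ip2 share was 4.90 percentage points instead of 9.97. That in the Mapk8 share was 8.07 instead of 9.87, and that in the Map3k3 share was -2.93 instead of -6.59. For Mapk9 it grew from 0.577 to 3.00 percentage points, and by tags the Mapk9 shares did not overlap between the groups.

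**Figure D4:**
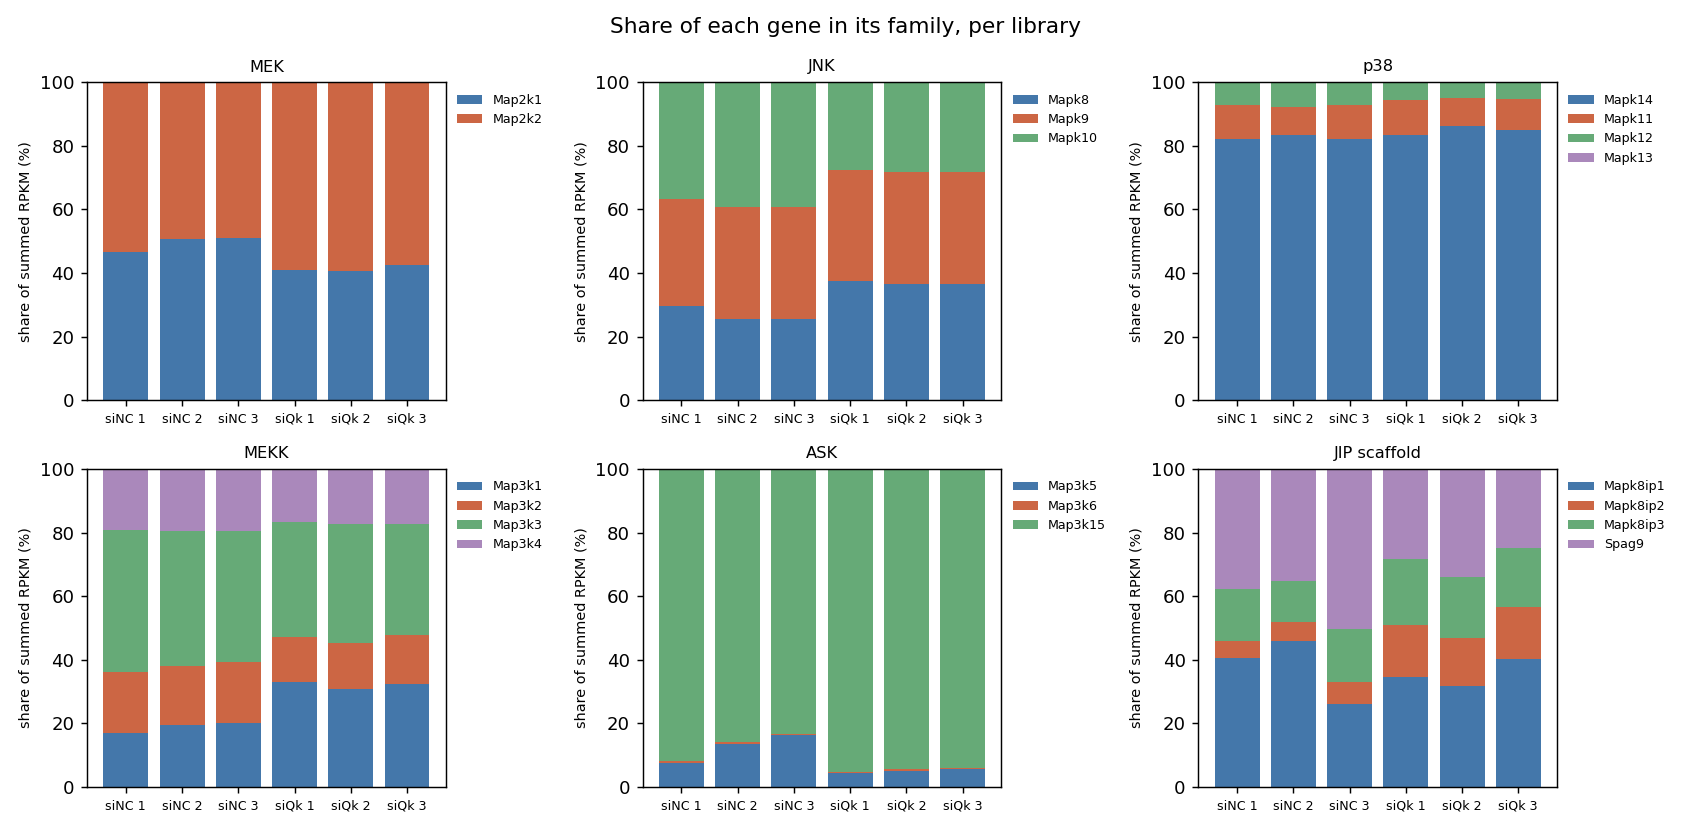
Share of each gene in the summed RPKM of its family (vertical axis, percent) in each of the 6 libraries, for the MEK, JNK, p38, MEKK, ASK and JIP families; each bar adds up to 100%. The Map2k1 segment of the MEK panel spans 46.6% to 51.1% in siNC and 40.5% to 42.5% in siQk, and the Map3k1 segment 16.8% to 20.0% and 30.7% to 32.9%.

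Other genes of the pathways were read from lists of genes outside the naming rule. Of 15 RAS, RAF and other kinases that act at the level of MAP3Ks or MAP4Ks, 14 were tested and 6 were called, each of them lower, where over all genes 31.0% were called and 17.2% were lower. The list's median log2 fold change was -0.17, against 0.01 over all genes. The called genes were led by Rap1a, a small GTPase that can activate B-Raf, with 122 to 184 RPKM in siNC and 63.1 to 74.0 RPKM in siQk (log2 fold change -1.36, edgeR FDR 0.00221). Next were Mink1, a close relative of Map4k4, at -1.09 (edgeR FDR 0.0134), and the RAS gene Nras at -1.05 (edgeR FDR 0.00774). Of 11 MAPK-activated kinases, 10 were tested and 1 was called, against 31.0% of all genes, with a median of -0.15. This was Mapkapk2, a p38 substrate, at -0.25 (edgeR FDR 0.0274). Its RPKM overlapped between the groups, at 30.9 to 37.4 in siNC and 30.7 to 34.7 in siQk.

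Of 14 adaptors and scaffolds, all tested, 3 were called, against 31.0% of all genes, and the median log2 fold change was 0.05. Ksr2, a scaffold of the ERK relay, was higher at 1.13 (edgeR FDR 0.00207), the arrestin gene Arrb1 was lower at -0.58 (edgeR FDR 0.00680), and Arrb2 was higher at 0.36 (edgeR FDR 0.0281). Of 12 transcription factors that are nuclear targets of MAPKs, 7 were called, 3 higher and 4 lower, where over all genes 13.8% were higher and 17.2% lower. Their median log2 fold change was 0.04. The largest changes were in Mef2c, a p38 and ERK5 target, at -1.12 (edgeR FDR 0.00746), in Elk4, an ERK target, at -0.77 (edgeR FDR 0.00190), and in Jun at -0.38 (edgeR FDR 0.0166). Jun, the namesake substrate of JNK, had 30.2, 38.4 and 38 RPKM in siNC and 30.0, 32.9 and 27.9 RPKM in siQk. In RPKM siQk 2 lay above siNC 1, but RPKM carries no TMM factor, which was 1.07 for siQk 2 and 0.899 for siNC 1. Divided by these factors, siQk 2 lay below siNC 1.

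Qki proteins bind RNA at sequences that hold ACTAAC or ACTAAT, written here with T in place of U. The longest annotated 3'UTR of each tested gene was searched on the transcript strand for these 6 letters, in GENCODE M21 on GRCm38, the assembly also called mm10. A match is a description of the letters and no proof of binding, and no test was made of these counts. At least 1 match was present in 36.2% of 10825 tested genes with a 3'UTR of at least 50 bases, in 53.4% of those called lower, 27.2% of those called higher and 33.6% of those not called. Among the members it was present in 2 of 7 called lower, 2 of 7 called higher and 9 of 28 not called. A longer 3'UTR has more room for a match, and the median lengths of these member sets were 1336, 2068 and 1200.5 bases. Over all tested genes the medians were 1579, 1164 and 1259 bases, in the same order. Pooled over each set, the members held 0.494, 0.126 and 0.308 matches per kilobase. Over all tested genes these densities were 0.497, 0.243 and 0.319. The densities of the called members rest on few genes. The members called lower that held a match were Spag9, with 4 matches in 3248 bases, and Mapk10, with 3 in 5368 bases. The members called higher that held a match were Mapk8 and Mapk8ip2, with 1 match each. The 3'UTRs of Mapk3, Map2k1, Map4k5, Map4k3 and Map3k5, which were called lower, held none. Those of Map3k1, Map3k9, Map3k14, Mapk14 and Mapk4, which were called higher, held none either. This says only that these letters were not in this window.

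Matches are shown for Spag9, the called member with the most of them, and for the JNK genes Mapk10 and Mapk8, which changed in opposite directions. Each window has 30 bases of the transcript strand, 5′ to 3′, with the match in capitals. The 4 matches of Spag9 began at bases 347, 359, 439 and 2939 of its 3'UTR, and the match at base 359 is seen in lower case at the end of the first window.
Spag9, chr11:94123172-94123201, plus strand: gttttacctgtcACTAATaatggaactaat
Spag9, chr11:94123264-94123293, plus strand: tagaattgacgcACTAATaacagacggatt
Spag9, chr11:94125764-94125793, plus strand: ctattctgtaacACTAATtgtctttctctt
Mapk10, chr5:102909897-102909926, minus strand: ataaagatggaaACTAATacttcatctctc
Mapk10, chr5:102909614-102909643, minus strand: gttagggcaaagACTAACtggtctcattct
Mapk10, chr5:102909295-102909324, minus strand: cttagaaatggcACTAACtaaacaaactaa
Mapk8, chr14:33379606-33379635, minus strand: ggtctcgtacccACTAATacatagtgacca
The Spag9 matches were all of the ACTAAT form, Mapk10 held both forms, and the single match of Mapk8 was ACTAAT.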

How the data were processed

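Polyadenylated RNA of mOPCs was sequenced as paired-end reads. OLego mapped them to mm10 and Quantas gave gene values, both run by the authors. Versions and the gene annotation are not given in the sources used here. For each library the authors deposited an expected count of tags per gene, not normalized, and the exon length. The authors also deposited RPKM, which recomputing from tags, exon length and library total returned in all 6 tables. A tag may be a single read or a pair, which no source used here states. Isoforms and exons were not analysed here, and reads shared with close paralogs or overlapping genes make those genes uncertain.

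Members, gene lists and families were chosen with earlier results of these data known. Expected counts were rounded and tested with edgeR 4.0.16 (limma 3.58.1, R 4.3.3), quasi-likelihood test, TMM, group as the only term, on genes with an average logCPM over 0, with the cutoffs that the study names. The standard error is the size of the log2 fold change over the root of F. The step was tested on simulated data. Replicates differed by more than sampling noise, with a chi-square per degree of freedom of 160.5 to 281 between siNC libraries and 31.7 to 64.2 between siQk libraries. The common biological coefficient of variation was 0.146. Levels are given for every library for called members with a mean of at least 1 RPKM in either group, for Map4k4, Spag9 and Map3k7, and for Map2k and Mapk genes of at least 1 RPKM. Other list genes are the 3 called genes of largest change per list. Hras and Zak were matched through their Entrez identifiers to older symbols. Coordinates are those of RefSeq genes on GRCm38. Alternatives were DESeq2 1.42.0, other tests, scalings, filters and cutoffs, the replicate block and each library left out. A member of the Mapk tier is counted but not reported here.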

Additional observations from a re-analysis of the deposited data

How the results depend on the processing

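Under 16 alternative settings, 11 of the 14 called members kept their call wherever they were tested (Map3k9 in 12 settings). Map3k14 and Map4k3 kept it in 10 settings each and Map4k5 in 15. With library size only, which moved the median log2 fold change of all genes from 0.01 to 0.16, 2989 genes were higher and 1365 lower, and 11 members were higher; with upper quartile scaling 2234 genes were higher and 1785 lower. When each library was left out in turn, 2478 to 3704 genes were called, 1008 to 1610 of them higher and 1470 to 2094 lower, and 11 to 16 members were called. Same-numbered libraries did not deviate together (correlations -0.05, -0.15 and -0.34), but with 3 libraries a group this cannot exclude a pairing. With a replicate block 2796 genes and 12 members were called, 6 in each direction, and Map3k14 (0.46) and Map4k3 (-0.36) were not.

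Members that were not called changed sign near 0. With library size only this held for Map2k5 (0.082), Map3k2 (0.0010), Map3k3 (0.13), Map3k7 (0.056), Map3k8 (0.094), Map3k15 (0.055), Map4k2 (0.10), Mapk9 (0.035), Mapk12 (0.021) and Mapk1ip1 (0.15). With upper quartile scaling it held for Map3k3 (0.046), Map3k8 (0.0076), Map4k2 (0.0079) and Mapk1ip1 (0.057), without a filter for Map3k3 (0.0092) and Mapk1ip1 (0.020), and for Mapk1ip1 with filterByExpr (0.011) and DESeq2 (0.0037). With a library left out the ranges were -0.079 to 0.14 for Map2k3, -0.081 to 0.053 for Map3k3, -0.063 to 0.11 for Map3k4, -0.20 to 0.15 for Map3k8, -0.26 to 0.014 for Map3k15, -0.17 to 0.012 for Map4k2 and -0.040 to 0.033 for Mapk1ip1. The cause was not tested. With 3 libraries a group, a gene at the lowest levels, such as Map3k9, rests on few tags.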
